A study of Mus musculus with 13 samples.

Results

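The Y-box and Pur nucleic acid binding proteins are described here through the mRNA levels of 6 genes, Ybx1, Ybx2, Ybx3, Carhsp1, Pura and Purb, found by symbol among the 55642 genes of the deposited count table. Ybx3 was the target of the siRNAs, and the other members were followed to see whether a related mRNA rose when YBX3 was depleted. RNA was sequenced from the established mouse line C2C12, whose myoblasts form myotubes when the serum is changed. Cells received nontargeting siRNAs (the control KD group) or siRNAs against YBX3 (the YBX3 KD group), and all were harvested 48 h after transfection. They were either kept in growth medium with fetal bovine serum (proliferating myoblasts, 0 day) or spent the last 24 h in medium with horse serum (differentiating myoblasts, 1 day). At 0 day each group had 4 libraries, replicates A to D. At 1 day control KD had 2 libraries, C and D, and YBX3 KD had 3, B to D. The labels call them biological replicates. All 13 come from transient knockdown in a single cell line, without an untransfected group.

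Y-box proteins bind RNA and single-stranded DNA through a cold-shock domain, an ancient fold shared with bacterial cold-shock proteins. YBX1 is an abundant packaging protein of cytoplasmic mRNA, YBX2 is best known from germ cells, and YBX3 (also ZONAB or DbpA) acts on mRNA and, with tight junction proteins, on transcription. Carhsp1 is a small cold-shock domain protein whose phosphorylation state changes with calcium and which binds Tnf mRNA. Pura and Purb belong to another family, which binds purine-rich single strands and is known in muscle for acting on actin and myosin heavy chain genes.

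Library totals were 33451547 to 71811371 counts, and 16848 genes had enough counts for a test. Levels are given as CPM, the counts per 1000000 counts of the library total of the tested genes, scaled by the TMM method (trimmed mean of M-values). Myoblast markers (Myod1, Myf5, Des, Cdh15 and Vim) summed to between 3248 and 4936 CPM in every library, mostly from Vim, and Myod1 was at 0.601 to 3.32 CPM. The 4 macrophage markers summed to 1.84 to 3.92 CPM and the 4 endothelial markers to 0.776 to 1.74 CPM, with Adgre1 at 0 in all libraries. Markers of differentiating muscle (Myog, Mymk, Myh3, Ckm, Acta1 and Tnnt3) summed to 5.86 to 33.7 CPM in control KD at 0 day and 5.77 to 12.7 CPM at 1 day. In YBX3 KD they summed to 15.1 to 27.6 CPM at 0 day and 8.10 to 65.9 CPM at 1 day. The YBX3 KD and control KD ranges overlapped at each day. Tests used edgeR's quasi-likelihood method with adjustment over all 16848 genes. A fold change was called when it was above 1.3 in either direction (0.379 on the log2 scale) with an adjusted p-value under 0.001, the thresholds of the study.

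The study lists 4 siRNAs to mouse YBX3. The sources used here do not give whether the RNAseq cells received all of them or a single one. Their antisense strands, which guide the cleavage of a matching mRNA, are shown because the members can be compared by their match to them. Capitals mark the seed, bases 2 to 8 from the 5′ end.
siRNA 05 antisense: uAUAGUUGuagggacgucg
siRNA 06 antisense: aUAGUAGCcgcgucuguac
siRNA 07 antisense: uCCAUAUCcauuucugacg
siRNA 08 antisense: aUACUUGCguggguuguuu

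Each antisense strand had a perfect 19-base match in the transcripts of 1 gene, Ybx3, always in its coding sequence. The sites lie on the minus strand of GRCm39 at chr6:131345399-131345417 (siRNA 05, exon 7 of the canonical transcript), chr6:131356348-131356366 (siRNA 06, exon 5), chr6:131361477-131361495 (siRNA 07, exon 2) and chr6:131357896-131357914 (siRNA 08, exon 4). Between 19 and 21 of the 24 annotated Ybx3 transcripts hold each site. For siRNA 07, the listed sense strand is not the complement of the antisense strand and is identical to the sense strand listed for the human siRNA of the same number, while its antisense strand matches mouse Ybx3.

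Among the other members, the only genes in which mismatched sites were searched, Ybx2 came closest to a second target. It had at least 6, 5, 4 and 4 mismatches of 19 bases to siRNAs 05, 06, 07 and 08, and Ybx1 had at least 7, 7, 6 and 6. For Carhsp1, Pura and Purb the fewest mismatches to any of the 4 were 6, 7 and 6. In the same search the nontargeting siRNAs had as few as 8 mismatches to Ybx2 and 7 to Ybx1. To Carhsp1, Pura and Purb they had as few as 7, 5 and 6. The siRNA 07 site is shown in the 3 Y-box genes because it is among the best paralog matches. Capitals mark bases equal to the Ybx3 site, which is complementary to the antisense strand.
Ybx3, chr6:131361477-131361495, coding: CGTCAGAAATGGATATGGA
Ybx2, chr11:69827757-69827775, coding: CGTCcGgAATGGtTAcGGA
Ybx1, chr4:119150950-119150968, coding: tGTaAGgAAcGGATAcGGt

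A seed can also pair with a 3′ untranslated region (3′ UTR) without the rest of the strand. Purb was the member with most such matches: 2 to the seed of siRNA 06 (GCTACTA in the mRNA) and 2 to that of siRNA 08 (GCAAGTA) in its 3′ UTR of 7313 bases, and 1 more to siRNA 08 in its coding sequence. The letters were searched on the mRNA strand only. The 4 sites in the 3′ UTR are shown with the seed match in capitals, since Purb is the other member whose level was called changed. They lie on the minus strand of chromosome 11 of GRCm39, in the only exon of Purb.
Purb, siRNA 06, chr11:6422299-6422324: caatccttcaccagtgGCTACTAagc
Purb, siRNA 06, chr11:6421727-6421752: gttctgtttttgaagtGCTACTAtga
Purb, siRNA 08, chr11:6423223-6423248: tctcaagaaccaggagGCAAGTAacc
Purb, siRNA 08, chr11:6418671-6418696: catatttttttggcagGCAAGTAtat

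Of the 12936 tested genes with an annotated 3′ UTR, 4.90% held the siRNA 06 match and 6.83% the siRNA 08 match. Among the 445 whose 3′ UTR was within 25% of the length of that of Purb, the shares were 17.8% and 24.3%. Purb had 0.273 matches per kb to each seed, against 0.0283 and 0.0405 per kb over all of these 3′ UTRs. Pura had 1 match to the siRNA 07 seed (GATATGG) in its 3′ UTR of 4408 bases, a match that 13.7% of 3′ UTRs of like length hold, and 2 to siRNA 08 in its coding sequence. Ybx1, Ybx2 and Carhsp1 had no match to any of the 4 seeds in their 3′ UTR or coding sequence. The nontargeting siRNAs also had matches. Nontargeting siRNA 03 had 3 in the 3′ UTR of Purb and 1 in that of Pura. Nontargeting siRNA 04 had 2 in that of Pura and 2 in the 584-base 3′ UTR of Ybx3 itself, at 3.42 per kb the highest density of any member and siRNA. These seed matches are more common. Of 3′ UTRs of like length, 81.3% (Purb) and 59.6% (Pura) hold the siRNA 03 match. For siRNA 04 the shares are 62.9% (Pura) and 14.8% (Ybx3). A match is a run of letters and not evidence of pairing in the cells. Its part in the levels below was not tested.

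Ybx3 (ENSMUSG00000030189, chr6:131341810-131365448, minus strand, 9 exons), the target, was reduced in every YBX3 KD library. In control KD its level was 316, 311, 334 and 265 CPM in replicates A to D at 0 day and 347 and 294 CPM in C and D at 1 day. In YBX3 KD it was 46.6, 40.3, 42.9 and 37.9 CPM in A to D at 0 day and 47.0, 71.5 and 28.7 CPM in B, C and D at 1 day. The groups did not overlap, and replicate D was the lowest library in each of the 4 groups. The log2 fold change over both days was -2.81 (SE 0.17, adjusted p = 5.26e-06 by edgeR), which left 14.3% of the control level (95% confidence interval 11.1 to 18.4%). In these bulk samples, fewer cells with Ybx3 mRNA and less Ybx3 mRNA per cell cannot be told apart.

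The depth of the knockdown varied more at 1 day than at 0 day. Against the control KD library of the same letter, the remaining Ybx3 was 14.7, 12.9, 12.8 and 14.3% in pairs A to D at 0 day, and 20.6% in pair C and 9.75% in pair D at 1 day. The log2 fold change was -2.87 at 0 day (SE 0.23, adjusted p = 2.47e-04, called) and -2.71 at 1 day (SE 0.27, adjusted p = 0.00557, not called). The difference between the days was 0.16 on the log2 scale (95% confidence interval -0.59 to 0.92, adjusted p = 1.00). The data do not exclude a difference within that interval. Without YBX3 KD replicate C at 1 day the fold change at 1 day was -3.07 and passed the call (adjusted p = 6.08e-04). The call at 0 day was lost in edgeR without any 1 of 7 of the 0-day libraries, all except control KD replicate D, at adjusted p-values up to 0.00302.

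**Figure D1:**
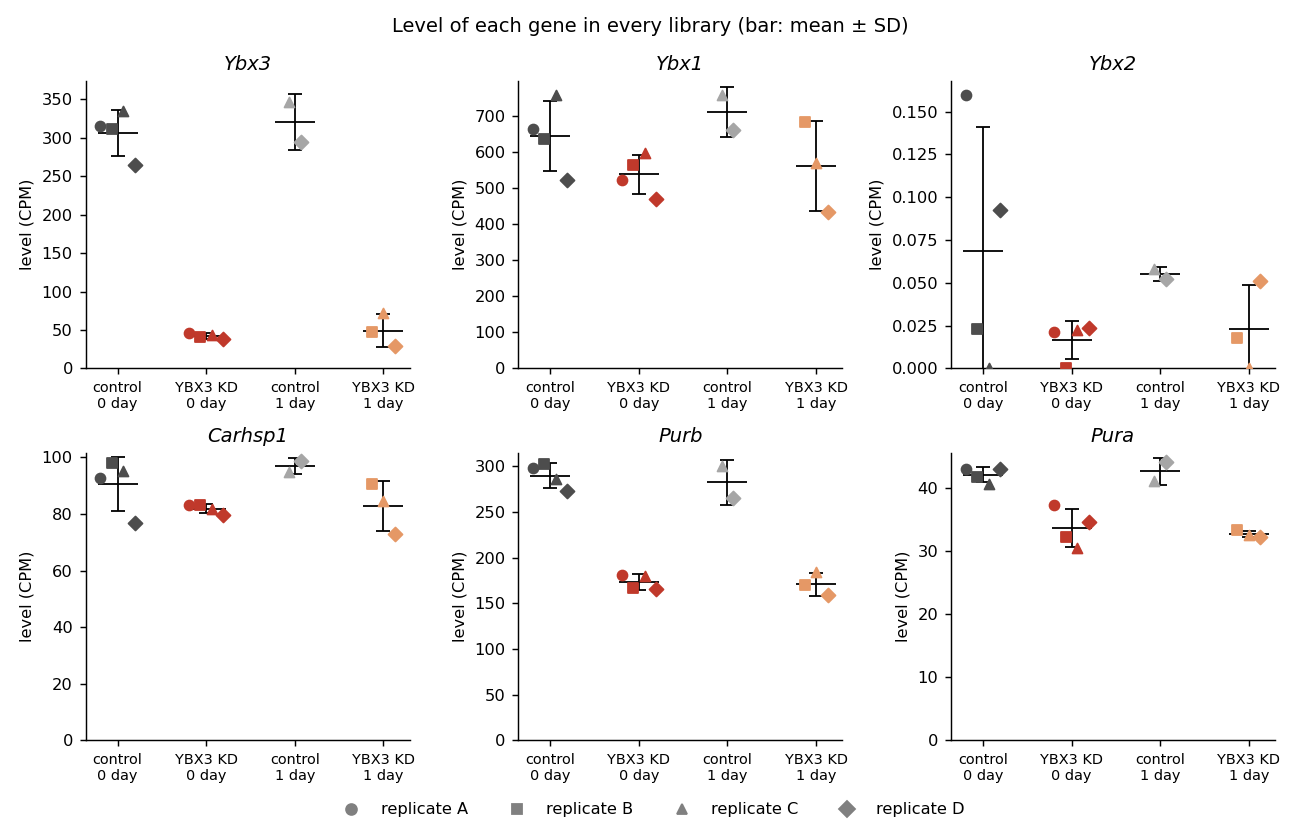
Levels in CPM (vertical axes, linear and from 0) of the 6 genes in each of the 13 libraries, by siRNA and day, with symbols for the replicate letter and black bars for the mean ± SD of a group. The 7 YBX3 KD libraries lie below the 6 control KD libraries for Ybx3, Purb and Pura, and overlap them for Ybx1 and Carhsp1; Ybx2 is at 0.160 CPM or less.

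Over both days, 2 of the 6 members were called, Ybx3 and Purb, both lower, while 0.107% of the 16848 genes tested were called lower. With Pura, 3 had an adjusted p-value under 0.05 and were lower, as were 1.04% of all genes tested. For the same 3 members the highest YBX3 KD library was below the lowest control KD library, as it was for 1.08% of genes tested. Ybx1 and Carhsp1 did not pass either threshold in this edgeR fit, which has no replicate block, and Ybx2 had too few counts for a test. With the replicate letter as a block in edgeR, Ybx1 also had an adjusted p-value under 0.05 (0.0286), and Carhsp1 did not (0.0601). The 1.04% of all genes belongs to the fit without the block and cannot be set beside these values. No member was called higher, and of the 19 genes called among all 16848 tested, only 1 was higher. Each of the counts of lower members includes Ybx3, whose fall was the intended effect of the siRNAs. Of the related members, only Purb was called in this fit, and only Purb and Pura had an adjusted p-value under 0.05. The median log2 fold change of the 5 tested members was -0.35, against 0.00080 for all genes tested.

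**Figure D2:**
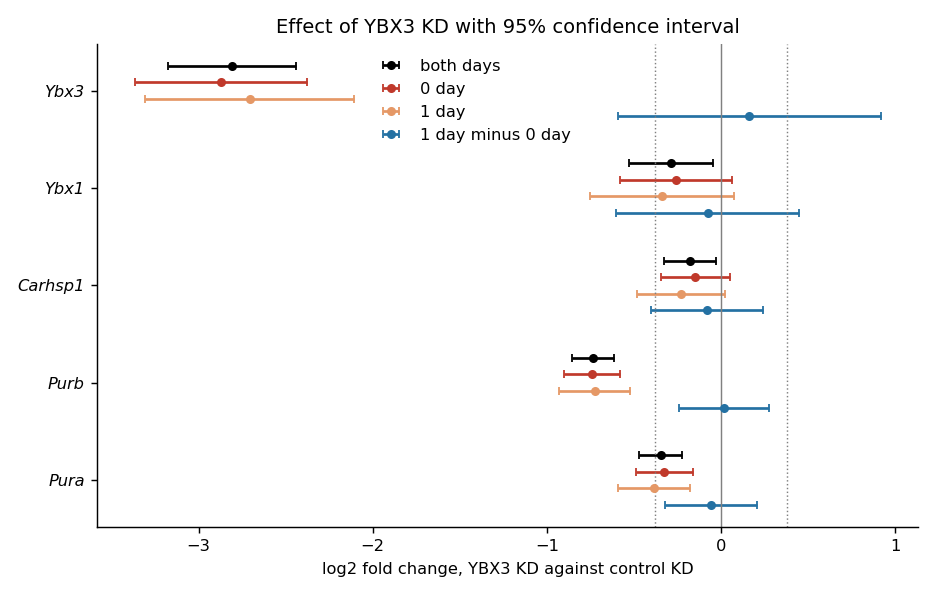
Log2 fold change of YBX3 KD against control KD (horizontal axis) for the 5 tested members, as points with 95% confidence intervals, over both days, at 0 day, at 1 day and as the 1-day effect minus the 0-day effect. Dotted lines mark a fold change of 1.3 in each direction. The Ybx3 and Purb intervals over both days lie wholly below the lower line, those of Ybx1, Carhsp1 and Pura reach above it, and every interval of the difference between the days spans 0.

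Ybx1 (ENSMUSG00000028639, chr4:119134524-119151950, minus strand), the main mRNA-packaging Y-box gene, was the most abundant member. In control KD it was at 663, 634, 756 and 522 CPM in replicates A to D at 0 day and 758 and 660 CPM in C and D at 1 day. In YBX3 KD it was at 522, 563, 597 and 470.1 CPM in A to D at 0 day and 682, 569 and 433 CPM in B, C and D at 1 day. The groups overlapped: only 3 of the 7 YBX3 KD libraries lay under the lowest control, and 2 of those 3 were replicate D.

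The log2 fold change of Ybx1 over both days was -0.29 (SE 0.11, adjusted p = 0.219), with a 95% confidence interval from -0.53 to -0.05. A rise of Ybx1 mRNA thus lies outside the interval, and so does a loss to under 69.2% of control. Within matched pairs Ybx1 was lower in 6 of 6, at 65.6 to 90.1% of control. With the replicate letter as a block the fold change was -0.31 and the adjusted p-value 0.0286, and leaving out the 4 libraries of replicate D gave -0.29 and 0.0391, both still short of the call. At 0 day the fold change was -0.26 (SE 0.15, adjusted p = 0.576, 95% confidence interval -0.58 to 0.06). At 1 day it was -0.34 (SE 0.19, adjusted p = 0.716, 95% confidence interval -0.75 to 0.08). The intervals of the single days thus include a small rise. Without YBX3 KD replicate D at 1 day, the value at 1 day was -0.18.

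Ybx2 (ENSMUSG00000018554, chr11:69826474-69832432, plus strand), the germ cell member, was near the limit of detection. Its counts in control KD were 7, 1, 0 and 3 in replicates A to D at 0 day and 3 and 2 in C and D at 1 day. In YBX3 KD they were 1, 0, 1 and 1 in A to D at 0 day and 1, 0 and 2 in B, C and D at 1 day. A library with 0 counts allows up to 3, or 0.0417 to 0.0926 CPM across these libraries, and this covers counting error only. Ybx2 lies on the opposite strand to parts of Eif5a, with 21095 to 83040 counts per library, and of Slc2a4. Whether the counting used the strand is not given in the sources used here, so these few reads cannot be assigned firmly and no fold change is given.

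Carhsp1 (ENSMUSG00000008393, chr16:8476435-8490033, minus strand), the small cold-shock domain gene, had the smallest difference of the tested members. Its level in control KD was 92.6, 98.0, 95.2 and 76.8 CPM in replicates A to D at 0 day and 94.9 and 98.8 CPM in C and D at 1 day. In YBX3 KD it was 83.2, 83.0, 81.7 and 79.6 CPM in A to D at 0 day and 90.4, 84.6 and 73.0 CPM in B, C and D at 1 day. The groups overlapped through control KD replicate D at 0 day, the lowest of the 6 controls. Over both days Carhsp1 had a log2 fold change of -0.18 (SE 0.069, adjusted p = 0.219, 95% confidence interval -0.33 to -0.03).

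The matched pairs of Carhsp1 did not all point the same way. It was lower in 5 of 6 pairs, at 73.9 to 89.9% of control, and pair D at 0 day stood at 103.6%. Without the 4 libraries of replicate D the fold change stayed at -0.18, with an adjusted p-value of 0.0282, and blocking on the letter gave -0.19 (adjusted p = 0.0601). Carhsp1 overlaps Pmm2 on the opposite strand, which had 894 to 3287 counts per library.

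Purb (ENSMUSG00000094483, chr11:6417599-6425917, minus strand, a single exon), a binder of purine-rich single strands, was reduced in every YBX3 KD library. In control KD it was at 297, 303, 285 and 273 CPM in replicates A to D at 0 day and 299.6 and 265 CPM in C and D at 1 day. In YBX3 KD it was at 181, 167, 180 and 165 CPM in A to D at 0 day and 170 and 184 CPM in B and C and 159 CPM in D at 1 day. The highest YBX3 KD library was 184 CPM and the lowest control KD library 265 CPM. Over both days its log2 fold change was -0.73 (SE 0.055, adjusted p = 2.42e-05), which left 60.1% of control (95% confidence interval 55.3 to 65.3%), and Purb ranked 6th among all tested genes by p-value, where Ybx3 ranked 2nd.

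The reduction of Purb was even across libraries. Its matched pairs stood at 60.9, 55.1, 62.9 and 60.7% of control in A to D at 0 day and 61.4 and 59.9% in C and D at 1 day. The log2 fold change was -0.74 at 0 day (SE 0.073, adjusted p = 0.00107) and -0.72 at 1 day (SE 0.093, adjusted p = 0.0213), with a difference between the days of 0.02 (95% confidence interval -0.24 to 0.28). At 0 day it missed the call by its adjusted p-value, and with the replicate letter as a block it passed at the same fold change (adjusted p = 4.24e-04). At 1 day, pair C kept 20.6% of its Ybx3 and 61.4% of its Purb, and pair D 9.75% and 59.9%. Whether the level of Purb followed the depth of the Ybx3 knockdown was not tested.

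Pura (ENSMUSG00000043991, chr18:36413537-36425588, plus strand), the paralog of Purb, was lower by a smaller amount. Its level in control KD was 42.9, 41.6, 40.6 and 43.0 CPM in replicates A to D at 0 day and 41.1 and 44.1 CPM in C and D at 1 day. In YBX3 KD it was 37.2, 32.1, 30.4 and 34.6 CPM in A to D at 0 day and 33.3, 32.5 and 32.2 CPM in B, C and D at 1 day. The groups did not overlap, with YBX3 KD replicate A at 0 day nearest to the controls. Over both days its log2 fold change was -0.35 (SE 0.056, adjusted p = 0.00845, 95% confidence interval -0.47 to -0.23), short of both thresholds of a call.

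Pura was lower in 6 of 6 matched pairs, at 73.0 to 86.6% of control. Its fold change was -0.32 at 0 day (SE 0.074, adjusted p = 0.103) and -0.38 at 1 day (SE 0.095, adjusted p = 0.373), and blocking on the letter gave a 0-day value of -0.33 (adjusted p = 0.0238). Purb fell further than Pura. The log2 level of Purb minus that of Pura was 2.76 ± 0.11 (SD, n = 6) in control KD and 2.37 ± 0.11 (SD, n = 7) in YBX3 KD, a difference of -0.38 averaged over the days (exact permutation test of the libraries within days, two-sided p = 0.00143, the smallest its 700 arrangements can give). That test was not among the comparisons set out for the members, and it ignores the pairing of libraries by letter. In the 6 matched pairs the difference was negative in 6, with a mean of -0.38 (SD 0.10). Exchanging labels within pairs, a test chosen after seeing the data, gave an exact two-sided permutation p = 0.0312, the smallest its 64 arrangements can give. Letters C and D entered at both days, so the 6 pairs are not independent, and this p-value does not allow for it. The 2 genes share 84.1% of aligned coding bases, and neither has a near-identical copy in the annotation to which reads could be lost.

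**Figure D3:**
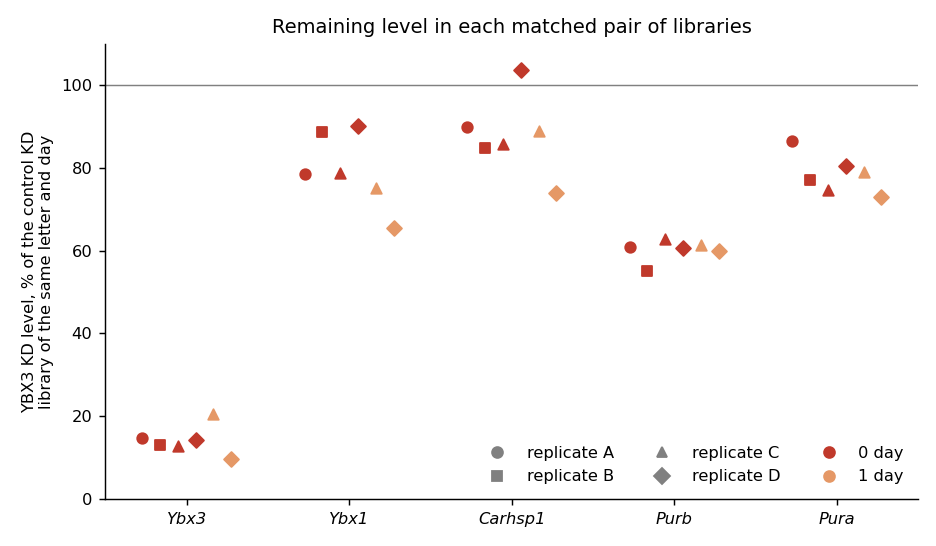
Level in each YBX3 KD library as percent of the control KD library of the same replicate letter and day (vertical axis, from 0; the line is 100%) for the 5 tested members, by replicate (symbol) and day (colour). The 6 pairs span 9.75 to 20.6% for Ybx3, 55.1 to 62.9% for Purb, 73.0 to 86.6% for Pura, 65.6 to 90.1% for Ybx1 and 73.9 to 103.6% for Carhsp1.

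Within single days fewer members passed. At 0 day 1 member was called, Ybx3, against 0.0297% of all genes tested called lower, and with Purb 2 had an adjusted p-value under 0.05 and were lower, against 0.22%. With the replicate letter as a block Purb was called at 0 day as well. For Ybx3, Purb and Pura all 4 YBX3 KD libraries lay below all 4 control KD libraries, as was so for 4.27% of genes. At 1 day 0 members and 0% of genes were called in edgeR, while 3 members (Ybx3, Purb and Pura) and 1312 genes had an unadjusted p-value under 0.05 and DESeq2 called 2 members and 25 genes. There Ybx3 and Purb had an adjusted p-value under 0.05 in edgeR and were lower, against 0.0653% of genes. For 4 members (Ybx3, Purb, Pura and Carhsp1) the 3 YBX3 KD libraries lay below the 2 control KD libraries, as was so for 9.4% of genes.

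The effect of YBX3 KD on the members was not shown to differ between proliferating and differentiating myoblasts. The differences between the days ran from -0.08 (Carhsp1) to 0.16 (Ybx3) on the log2 scale, 0 members and 0% of genes were called in edgeR, and 444 genes had an unadjusted p-value under 0.05, none of them a member (DESeq2 called 1 gene, also no member). The step to differentiation medium likewise gave no called member. From 0 to 1 day, the members' log2 fold changes in control KD ran from -0.04 (Purb) to 0.14 (Ybx1), and in YBX3 KD from -0.04 (Pura) to 0.23 (Ybx3). In both steps 0% of genes were called in edgeR, with 242 genes in control KD and 721 in YBX3 KD at an unadjusted p-value under 0.05, none a member. DESeq2 called 0 and 2. The 6 markers of differentiating muscle were all lower at 1 day in control KD (log2 fold changes -1.38 to -0.47, median -0.90). In YBX3 KD 5 of them were higher and 1 lower (median 0.55). None of the 6 had an adjusted p-value under 0.05 in either step. A differentiation response was thus not shown, and the members' steps cannot be read as their behaviour during differentiation.

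Levels can be compared between members only per length. Divided by the merged exon length of each gene (from 2290 bases for Ybx2 to 8319 for Purb), the mean level in control KD was 164 CPM per kb for Ybx1, 91.4 for Ybx3, 34.5 for Purb, 25.1 for Carhsp1, 6.66 for Pura and 0.0281 for Ybx2. The ranges of neighbours in this order did not overlap, but with canonical transcript lengths those of Purb (31.8 to 36.4) and Carhsp1 (26.7 to 34.3) did. In YBX3 KD the order was Ybx1 (135), Carhsp1 (22.2), Purb (20.7), Ybx3 (13.2), Pura (5.24) and Ybx2 (0.00847). Ybx3 thus moved from the second to the fourth place with merged exon lengths, though its range (8.42 to 21.0) overlapped those of Carhsp1 and Purb. With both other lengths it came in the third place, between those genes. It was at 23.0 CPM per kb with the longest transcripts, against 25.5 for Carhsp1 and 20.7 for Purb. With the canonical ones, an alternative chosen after seeing the data, it was at 26.6, against 28.6 and 20.7.

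The summed Y-box mRNA was lower in every YBX3 KD library than in any control KD library. The sum includes Ybx3, the siRNA target, so a fall was built in unless another Y-box mRNA rose. Ybx1, Ybx2 and Ybx3 together were at 256 ± 29.9 CPM per kb (SD, n = 6) in control KD and 148 ± 22.4 CPM per kb (SD, n = 7) in YBX3 KD, with ranges of 206 to 289 and 115 to 182 that did not overlap. The sum after YBX3 KD was 58.0% of control with merged exons, 54.0% with the longest transcripts and 59.98% with the canonical ones. Ybx3 made up 35.9 ± 1.26% of the sum in control KD and 8.86 ± 1.99% in YBX3 KD, and the ratio of Ybx1 to Ybx3 per length went from 1.79 ± 0.098 to 10.7 ± 2.08. These sums are descriptions of mRNA per length in each library and were not tested.

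**Figure D4:**
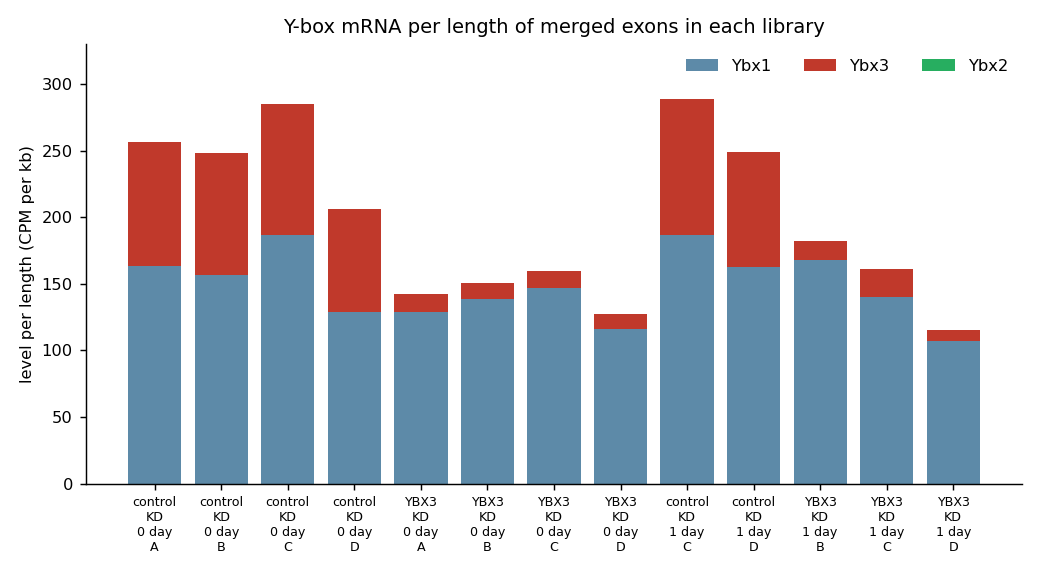
Level per length (CPM per kb of merged exons, vertical axis from 0) of Ybx1, Ybx3 and Ybx2 stacked for each of the 13 libraries. The control KD stacks reach 206 to 289 and the YBX3 KD stacks 115 to 182, the Ybx3 segment shrinks from 35.9% to 8.86% of the stack on average, and Ybx2 is too low to be seen.

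Few counts were assigned to near-identical copies of the members, and how many reads could have come from either was not tested. Ybx1 has 5 processed pseudogenes of at least 90% identity over 200 bases in the table (Ybx1-ps2, Gm11560, Gm6540, E130201H02Rik and Gm49119), whose counts summed to 0.171% of those of Ybx1. Carhsp1 has 1 (Gm9791, 99.3% identical over 447 bases), at 0.0654%. Among the coding sequences, Ybx1 and Ybx3 shared 72.4% of aligned bases, Ybx2 and Ybx3 68.4%, and Y-box and Pur genes 58.0 to 61.6%.

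After removal of the group means, the members varied together in part over the 13 libraries. Pearson's r was 0.80 for Ybx1 with Carhsp1, 0.79 for Ybx3 with Purb and 0.62 for Ybx1 with Ybx3, while Pura had r from -0.34 (Ybx1) to 0.01 (Ybx3) with the others. These values are descriptions, since the libraries share replicate letters, and replicate D was the lowest library of each of the 4 groups for Ybx1, Ybx3 and Purb.

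The tested genes whose log2 CPM ran most like each member over the 13 libraries, KD difference included, were as follows. For Ybx3 they were Aph1b (r = 0.993), Purb (0.990) and Foxk2 (0.988), and for Purb they were Ybx3 (0.990), Dcun1d4 (0.988) and Aph1b (0.987). All of these were themselves called lower after YBX3 KD. For Pura they were Smad5 (0.967), Gm56936 (0.954) and C1galt1 (0.941), of which C1galt1 was called lower. For Ybx1 they were Taf5l (0.974), Pgam5 (0.974) and Fkbp1a (0.972), and for Carhsp1 Dpy19l1 (0.975), Nans (0.973) and Ptma (0.966), none of them called.

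Other genes of these families and pathways were counted over both days, where 2.34% of all genes had an adjusted p-value under 0.05 in either direction. Of 4 other cold-shock domain and Pur genes (Csdc2, Lin28a, Lin28b and Purg), 3 were tested, and 0 had a p-value under 0.05 in edgeR, adjusted or not. Their median log2 fold change was -0.10. Csdc2 had the lowest value (-0.20, SE 0.25) and Lin28b the highest (0.25, SE 0.29), the latter at 2 to 24 counts per library. The value nearest to 0 was that of Purg, a further Pur family gene (-0.10, SE 0.13, adjusted p = 0.775). Purg averaged 4.33 CPM (SD 0.61, n = 6) with control KD and 4.08 CPM (SD 0.69, n = 7) with YBX3 KD. Lin28a was at 0 counts in all libraries.

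Among 22 mRNA-binding partners of Y-box proteins, 17 had a negative and 5 a positive log2 fold change (median -0.11), and 1 had an adjusted p-value under 0.05. This was Lsm14a, a processing-body protein. Control KD libraries averaged 104 CPM (SD 6.76, n = 6) and YBX3 KD libraries 81.4 CPM (SD 5.39, n = 7). The log2 change of -0.36 (SE 0.061, adjusted p = 0.00991) was short of both thresholds of a call. At the other end, Igf2bp2 was at 0.19 (adjusted p = 0.365), and Fxr2 was nearest to 0 (-0.01).

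None of 9 genes linked to YBX3 as ZONAB at tight junctions and in the cell cycle had an adjusted p-value under 0.05 (2 had an unadjusted one). Their median was -0.07. Pcna, the sliding clamp of DNA replication, had the lowest value (-0.38, SE 0.27, adjusted p = 0.549), Ccnd1, cyclin D1, the highest (0.28, SE 0.21, adjusted p = 0.580) and Arhgef2 the one nearest to 0 (-0.03). Of 10 genes whose promoters Y-box or Pur proteins are known to act on, 8 were tested and 0 had an adjusted p-value under 0.05 (1 had an unadjusted one), with 7 positive values and a median of 0.30. Abcb1a, a drug efflux pump, was highest (0.71, SE 0.43, adjusted p = 0.471), its paralog Abcb1b was at -0.01, and Acta2, the smooth muscle actin that Pur proteins act on, at 0.19 (adjusted p = 0.503). Myh6 and Myh7 were not tested, at 0 to 13 counts per library.

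The 3 calcineurin catalytic genes and Ppp3r1 had values from -0.17 (Ppp3cb) to -0.04 (Ppp3ca), a median of -0.07, and 0 adjusted p-values under 0.05 (1 unadjusted). Tnf, whose mRNA Carhsp1 binds, had 0 to 5 counts per library and was not tested. Of the markers, Tek, an endothelial receptor, had an adjusted p-value under 0.05 (log2 fold change 1.74, adjusted p = 0.0375) at 2 to 22 counts per library. Myod1 averaged 1.07 CPM (SD 0.40, n = 6) with control KD and 2.34 CPM (SD 0.81, n = 7) with YBX3 KD (adjusted p = 0.0726). The 6 markers of differentiating muscle had positive values from 0.50 (Myh3) to 1.26 (Mymk) over both days. At 0 day 3 were positive and 3 negative (median 0.086), and at 1 day all 6 were positive, from 1.06 (Myh3) to 2.81 (Ckm, SE 1.42), with a median of 2.00. The 1-day values rest on few and uneven libraries. Their sums there ran from 8.10 to 65.9 CPM in the 3 YBX3 KD libraries and from 5.77 to 12.7 CPM in the 2 control KD libraries. None of the 6 had an adjusted p-value under 0.05 over both days or at either day, and of the myoblast and macrophage markers tested none had one. The part of these markers in the members' levels was not tested.

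**Figure D5:**
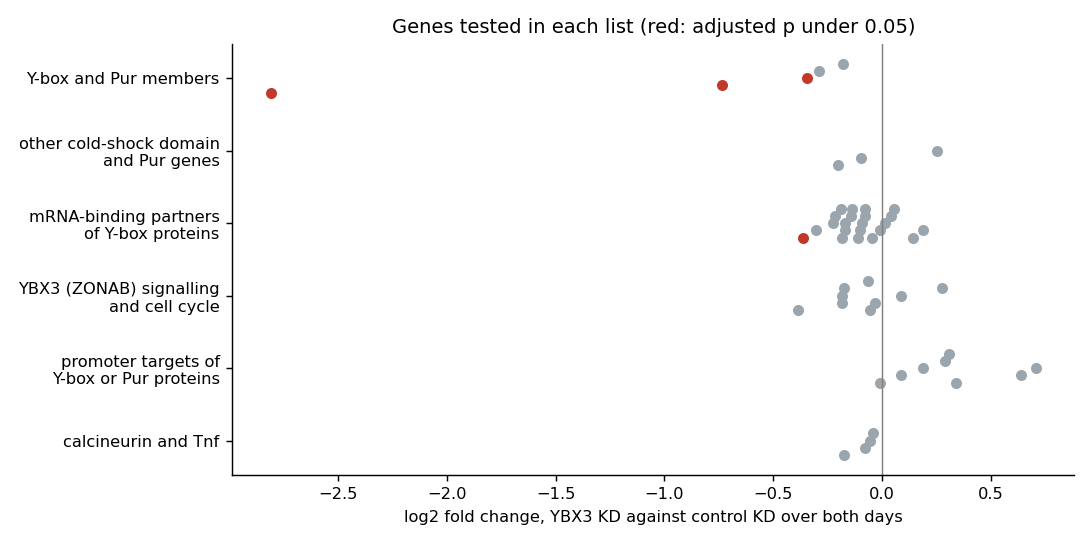
Log2 fold change of YBX3 KD against control KD over both days (horizontal axis) for each tested gene of the Y-box and Pur members and of the 5 lists (rows; the vertical scatter within a row only separates points). Red points have an adjusted p-value under 0.05: 3 members (Ybx3, Purb and Pura) and, among the listed genes, Lsm14a.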

How the data were processed

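The authors mapped reads of a stranded mRNA library kit with Salmon to the Gencode M30 annotation of GRCm39. The deposited values are its estimated counts per gene, given as whole numbers and not normalized. The labels carry a replicate letter and a title number that differ at 1 day, and replicates are named by letter. The filterByExpr function, given the 4 groups, left 16848 of 55642 genes, which were scaled by TMM and tested with edgeR 4.0.16 (glmQLFit, glmQLFTest) in R 4.3.3 with Benjamini-Hochberg adjustment over all tested genes, with the day as a term or as contrasts of 4 group coefficients, on all 13 libraries. The procedure was tested on simulated counts. Alternatives used limma 3.58.1 and DESeq2 1.42.0. Sequences and positions came from GENCODE vM39 on GRCm39, with BLAST 2.17.0 and Biopython 1.88.

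Residuals from group means correlated above 0.1 in 16 of 16 pairs of libraries of different groups with the same letter (0.117 to 0.730) and in 8 of 16 with the same title number, so the letters pair the samples. Libraries of a group were not duplicates (chi-square per degree of freedom 18.0 to 258.7). The members and lists were chosen with earlier results of these data known. Named genes were all members, the list genes with an adjusted p-value under 0.05, the most and least changed of each list, near-identical copies, and the 3 genes most correlated with each member. One gene of the lists is not reported here.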

Additional observations from a re-analysis of the deposited data

Results flagged for a closer look

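In 12 groups of 4 libraries (6 genes, 2 siRNAs at 0 day), 1 value stood apart from the others of its group by Dixon's test at the 95% level, and chance alone marks about 1 in 20 groups. It was Ybx2 in YBX3 KD replicate B at 0 day, with 0 CPM (0 counts) where the other 3 libraries had 1 count each. The gap is a single count.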

How the results depend on the processing

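Over both days Ybx3 and Purb were called in all 24 alternatives and no member reversed. The log2 fold change ran from -2.94 to -2.72 for Ybx3, -0.76 to -0.72 for Purb, -0.38 to -0.30 for Pura, -0.34 to -0.23 for Ybx1 and -0.22 to -0.15 for Carhsp1. Pura was called in 1, an adjusted p-value of 0.05 with no fold threshold. At 0 day, 2 members were called with DESeq2, limma-voom, the replicate block by letter, DESeq2 with that replicate block (added after seeing the data) and the threshold of 0.05, and 0 with the replicate block by title number, against 1 in edgeR. At 1 day DESeq2 and the threshold of 0.05 called 2 and DESeq2 with the block called 3, against 0. With each library left out in turn, 0 to 1 were called at 0 day and 0 to 1 at 1 day. A lone control KD library at 1 day was then assumed to vary like the other groups. The replicate block by letter changed no other call. The difference between the days changed sign, always uncalled, for Ybx1 (0.027) and Carhsp1 (0.0017) with limma-voom and, without the 4 libraries of replicate D, for Ybx1 (0.019), Carhsp1 (0.095), Pura (0.016) and Purb (-0.0049). With each library left out it ran from -0.23 to 0.079 for Ybx1, -0.20 to 0.43 for Ybx3, -0.14 to 0.0014 for Carhsp1, -0.093 to 0.0041 for Pura and -0.072 to 0.12 for Purb. The largest step of a member from 0 to 1 day was 0.14 on the log2 scale in control KD and 0.23 in YBX3 KD in edgeR, and over the alternatives reached 0.24 without control KD 1 day replicate D and 0.54 with limma-voom with quality weights, uncalled in each. The number of genes called over both days ranged from 9 (title number block) to 424 (DESeq2 with the letter block), against 19; DESeq2 called 188, limma-voom 185, the fit without replicate D 102 and the threshold of 0.05 called 394. At 0 day the number was 0 to 251, against 5, and at 1 day 0 to 157, against 0. The length used changed the Y-box sum in control KD from 256 to 381 (longest transcript) and 558 CPM per kb (canonical transcript). The cause of these differences was not tested.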
